A study of Mus musculus with 12 samples.

Results

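The retinoid metabolism genes described here are 9 genes of vitamin A handling, Bco1, Rbp2, Lrat, Adh1, Rdh7, Dhrs9, Aldh1a1, Aldh1a2 and Isx. They were taken as a named set, by matching the Ensembl identifiers of the deposited table to these symbols in the GENCODE M21 annotation, and they are 9 of 53715 genes in that table. All 9 passed the filter on low counts, which kept 16558 genes.

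The RNA came from the mucosa of ileum and colon of male C57BL/6J mice aged 8 weeks and was sequenced in 12 libraries, 3 from each tissue and genotype. Control mice carried the floxed allele on both chromosomes (Slc39a8-fl/fl), and Slc39a8-IEC KO mice also carried Villin-Cre (Slc39a8-fl/fl:Villin-Cre), so the floxed allele was common to all 4 groups. The Villin promoter directs Cre recombinase to intestinal epithelial cells, where it deletes Slc39a8, a manganese transporter, and the libraries ask which transcripts differ when the epithelium lacks it. According to the labels the controls are floxed mice without Cre, whereas the methods of the study describe control animals as a mixture that also includes wild-type and Villin-Cre mice. The labels do not say whether an ileal and a colonic library came from the same mouse. The mucosa was sequenced whole, so fewer cells of a type and less RNA per cell cannot be told apart.

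Dietary vitamin A reaches the intestine as carotenoids and as retinyl esters. Enterocytes cleave carotenoids to retinal, reduce it to retinol, esterify the retinol and export the esters in chylomicrons, while a smaller stream is oxidized through retinal to retinoic acid, the ligand of nuclear retinoic acid receptors. In the gut, retinoic acid is known for directing lymphocyte homing and regulatory T cell formation, and it induces Isx, a homeobox repressor of carotenoid uptake and cleavage.

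Total expected counts were 16749138 to 27903083 per library, and values below are CPM, counts scaled to library size with TMM factors, unless the length-scaled unit TPM is named. The 6 small intestinal absorptive markers were each higher in every ileal than in every colonic library and summed to 17980 to 21330 CPM in ileum and 791 to 1143 CPM in colon. Of the 6 colonic absorptive markers, Car1, Slc26a3 and Car4 were higher in every colonic than in every ileal library, Aqp8 and Slc37a2 overlapped, and Ceacam20 was lower in colon on average, with overlap. Their sum was 15980 to 28480 CPM in colon, where it is mostly Car1, and 354 to 3369 CPM in ileum. Slc39a8 was lower in every KO library than in every control library of its tissue, at 2.62 to 4.35 against 5.22 to 8.39 CPM in ileum and 7.35 to 11.5 against 20.1 to 20.8 CPM in colon. Ileum control 3 and ileum KO 1 stood apart, with 34.2 and 20.2 CPM of 6 smooth muscle markers where the other 4 ileal libraries had 1814 to 2643 CPM. For the retinoid metabolism genes, tissue differences that moved by more than 1.5-fold or changed sign without these libraries are also given without them. Tissue differences of other genes of the route are given with all libraries only, and some of them may depend on these libraries.

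The sequence before the transcription start is shown for the pair of genes of the intake route that were much higher in ileum, Bco1 and Rbp2, and for a pair of oxidation genes that were higher in colon, Adh1 and Aldh1a1. They are the 250 bases before a RefSeq start on the plus strand of GRCm38.p6, at chr8:117095615-117095864 for Bco1, chr9:98490287-98490536 for Rbp2, chr3:138277335-138277584 for Adh1 and chr19:20601718-20601967 for Aldh1a1. The stretches of Rbp2, Adh1 and Aldh1a1 lie inside the span of the gene in GENCODE M21, which begins each of these genes further upstream, and RefSeq lists another start of Aldh1a1 as well. Capitals mark matches to the letters searched, on either strand.
Bco1: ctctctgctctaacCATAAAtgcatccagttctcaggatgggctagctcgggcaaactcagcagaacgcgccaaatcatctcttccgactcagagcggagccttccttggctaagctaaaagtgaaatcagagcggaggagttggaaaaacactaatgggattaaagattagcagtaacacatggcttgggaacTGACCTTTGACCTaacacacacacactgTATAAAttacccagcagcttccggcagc
Rbp2: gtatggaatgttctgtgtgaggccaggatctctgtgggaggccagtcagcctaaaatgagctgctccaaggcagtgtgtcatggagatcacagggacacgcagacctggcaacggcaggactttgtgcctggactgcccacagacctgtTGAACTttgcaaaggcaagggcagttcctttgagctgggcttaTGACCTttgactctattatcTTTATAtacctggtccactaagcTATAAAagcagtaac
Adh1: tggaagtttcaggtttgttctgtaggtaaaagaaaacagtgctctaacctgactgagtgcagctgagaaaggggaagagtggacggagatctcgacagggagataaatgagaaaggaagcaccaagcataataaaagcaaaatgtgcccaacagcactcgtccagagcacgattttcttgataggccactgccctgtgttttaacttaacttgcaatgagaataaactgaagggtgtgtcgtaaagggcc
Aldh1a1: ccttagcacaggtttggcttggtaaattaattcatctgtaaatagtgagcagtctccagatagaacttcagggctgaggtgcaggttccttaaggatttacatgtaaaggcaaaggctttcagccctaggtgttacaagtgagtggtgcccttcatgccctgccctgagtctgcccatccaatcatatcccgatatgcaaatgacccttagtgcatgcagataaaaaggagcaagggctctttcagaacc

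Shares below are of 32851 promoters of 300 bases, read on both strands. The nuclear receptor core AGGTCA was held by 16.3% of them and its variant AGTTCA by 14.0%. The letters GATAAG, bound by zinc finger factors of the gut such as Gata4, were held by 7.44%. The letters TTTATG, bound by caudal-type homeobox factors, were held by 11.9%. The promoter element TATAAA was held by 13.6%. A direct repeat with a spacer of 5 bases was held by 0.00913% for the core and by 0.0244% for the variant. Positions are counted back from the start and give where a match begins. In Bco1, AGGTCA was found at positions -56 and -49, both on the minus strand, and together they form a direct repeat of AGGTCA with a spacer of 1 base, which 13 of the 32851 promoters hold (0.0396%). That repeat was added to the search after the sequence was seen. Rbp2 held AGGTCA at position -58 and AGTTCA at position -101, also on the minus strand. Bco1 held TATAAA at position -28 and, on the minus strand, TTTATG at position -236, and Rbp2 held TATAAA at position -15 and, on the minus strand, at position -38. No letters of the search were found in the stretches printed for Adh1 and Aldh1a1, nor in those of Lrat, Isx and Aldh1a2. AGGTCA was also found on the minus strand in Dhrs9, at position -88, and in Rdh7, at position -105 from 1 of its 2 listed starts. These genes differed between the tissues in opposite directions. Dhrs9 also held TATAAA at position -122 and, on the minus strand, at position -124. From the same start, Rdh7 held TTTATG at position -208 on the minus strand. A match describes the letters and does not show binding.

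Between ileum and colon the genes did not all differ in the same direction. Bco1, Rbp2 and Rdh7 were lower in colon, Dhrs9, Adh1 and Aldh1a1 were higher in colon, and this held in control and in Slc39a8-IEC KO mice, which share no library. With edgeR's quasi-likelihood test and an adjusted p under 0.1 as the threshold, 6 of the 9 genes passed in control mice, where 35.9% of all tested genes did, 3 of them higher in colon (16.2% of all genes) and 3 lower (19.6%). In KO mice 7 of the 9 passed, with Isx added, where 37.1% of all tested genes did. Of these, 4 were higher in colon (17.1% of all genes) and 3 lower (20%). The median absolute log2 difference of the 9 genes was 2.06 in control and 1.97 in KO mice, and that of all tested genes 0.50 and 0.51. The colonic and ileal libraries of 7 of the 9 genes did not overlap, in control mice (40.7% of all tested genes) and in KO mice (50.4%), with Lrat and Aldh1a2 as the exceptions.

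**Figure D1:**
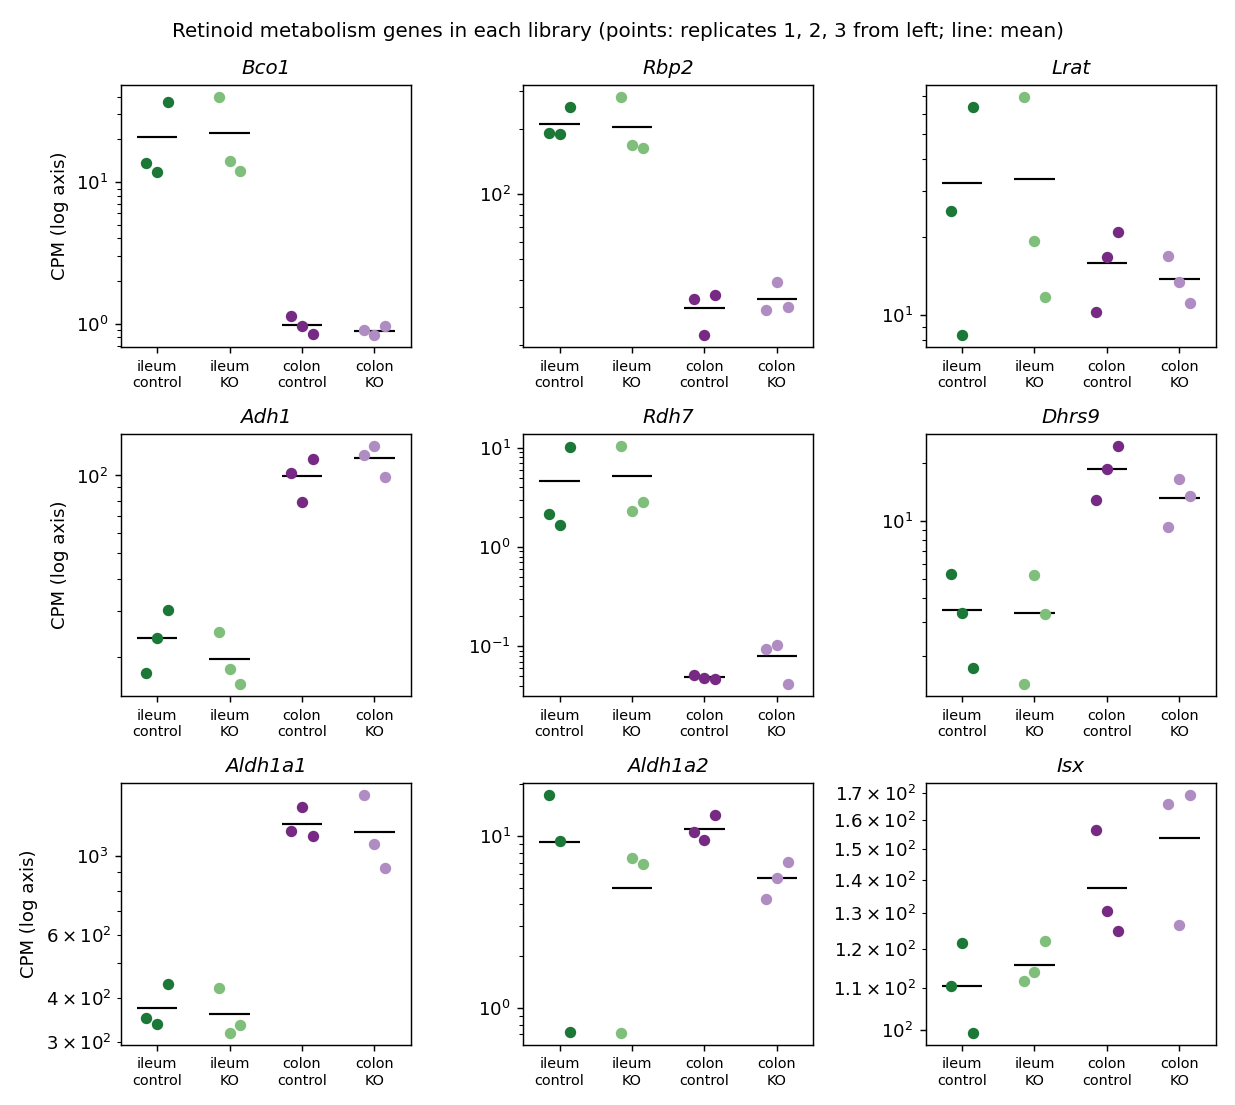
CPM of the 9 retinoid metabolism genes in each of the 12 libraries, on log axes that differ between panels, with replicates 1 to 3 from left to right in each group and a line at the group mean. Bco1, Rbp2 and Rdh7 sit lower in every colonic than in every ileal library, and Adh1, Dhrs9 and Aldh1a1 sit higher.

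Bco1 (ENSMUSG00000031845.15, chromosome 8 from 117095854 to 117133720, plus strand, GRCm38) encodes the oxygenase that splits beta-carotene into retinal. It was at 13.6, 11.7 and 36.7 CPM in ileal control replicates 1 to 3 and at 39.9, 14.1 and 12.03 CPM in ileal KO replicates. In colon it was at 1.13, 0.96 and 0.85 CPM in control and at 0.90, 0.83 and 0.95 CPM in KO replicates, which rest on 16 to 23 counts per library. The highest colonic library thus lay well under the lowest ileal library, and 1 library of each ileal genotype stood above its 2 fellows. The log2 fold change of colon over ileum was -4.40 (SE 0.58, edgeR adjusted p = 1.8e-04) in control and -4.61 (SE 0.58, adjusted p = 1.4e-04) in KO mice. Without the 2 ileal libraries poor in muscle transcripts it was -3.71 and -3.85, and both passed the test.

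Rbp2 (ENSMUSG00000032454.9, chromosome 9 from 98486115 to 98509781, plus strand) encodes the cellular retinol binding protein of the enterocyte, which presents retinol for esterification. Its ileal values were 192, 188 and 251 CPM in control and 281, 169 and 163 CPM in KO replicates. Its colonic values were 32.4, 22.1 and 33.9 CPM in control and 28.8, 38.9 and 29.9 CPM in KO replicates. The tissues did not overlap, and within colon the spread was small beside the distance to ileum. Colon over ileum, Rbp2 differed by -2.83 on the log2 scale (SE 0.26, edgeR adjusted p = 1.1e-05) in control and by -2.65 (SE 0.25, adjusted p = 1.8e-05) in KO mice.

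Lrat (ENSMUSG00000028003.6, chromosome 3 from 82892579 to 82903973, minus strand) encodes lecithin retinol acyltransferase, which forms retinyl esters. Ileal control replicates were at 25.1, 8.33 and 63.8 CPM and ileal KO replicates at 69.6, 19.4 and 11.7 CPM. Colonic replicates were at 10.2, 16.7 and 20.8 CPM in control and at 16.9, 13.4 and 11.1 CPM in KO mice. The high ileal values were those of the 2 libraries poor in muscle transcripts, and the other ileal libraries fell within or near the colonic range. The log2 fold change of colon over ileum was -1.03 (SE 0.71, edgeR adjusted p = 0.31) in control and -1.28 (SE 0.71, adjusted p = 0.20) in KO mice, and without those 2 libraries it was -0.08 and -0.17. Of the intake genes Bco1, Rbp2 and Lrat, Lrat was therefore the 1 that did not pass the test between the tissues.

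Adh1 (ENSMUSG00000074207.10, chromosome 3 from 138260991 to 138290698, plus strand) encodes a cytosolic alcohol dehydrogenase that oxidizes retinol among other alcohols. It was at 17.2, 23.6 and 30.2 CPM in ileal control and 25.0, 17.9 and 15.7 CPM in ileal KO replicates. In colon it was at 102, 79.1 and 116 CPM in control and 120, 130 and 98.5 CPM in KO replicates. Every colonic library lay above every ileal one. The log2 fold change was 2.06 (SE 0.24, edgeR adjusted p = 7.5e-05) in control and 2.58 (SE 0.24, adjusted p = 1.7e-05) in KO mice.

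Rdh7 (ENSMUSG00000040134.8, chromosome 10 from 127884028 to 127888817, minus strand) encodes a microsomal retinol dehydrogenase. Its ileal values were 2.13, 1.67 and 10.2 CPM in control and 10.5, 2.31 and 2.84 CPM in KO replicates. In colon the 3 control libraries held 1 count each and the KO libraries 2, 2 and 1 counts. The summed counts were 301 in ileal and 3 in colonic control libraries, and 295 and 5 in KO libraries. Scaled for depth, ileum was 109 times colon in control mice (95% interval 37.1 to 533) and 60.1 times colon in KO mice (25.5 to 186). Ileum control 3 held 239 of the 301 counts and ileum KO 1 held 176 of the 295. Without these libraries the ratio was 38.6 in control (12.6 to 192) and 32.9 in KO mice (13.7 to 103). These exact intervals cover counting error only. The difference between the tissues passed edgeR's test with adjusted p = 8.1e-04 in control and 9.1e-04 in KO mice, and without the same libraries with adjusted p = 1.6e-05 and 1.1e-05. Of the 75-base windows of its transcripts, 6.11% also occur in Rdh18-ps, Rdh16f1 or Rdh1, so a share of its reads could have been divided among these relatives.

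Dhrs9 (ENSMUSG00000027068.6, chromosome 2 from 69380445 to 69404533, plus strand) encodes another short-chain retinol dehydrogenase. It was at 5.32, 3.33 and 1.74 CPM in ileal control and 1.43, 5.24 and 3.32 CPM in ileal KO replicates. In colon it was at 12.8, 18.6 and 24.6 CPM in control and 9.38, 16.6 and 13.5 CPM in KO replicates. The lowest colonic value exceeded the highest ileal value. Colon over ileum, Dhrs9 differed by 2.44 on the log2 scale (SE 0.49, edgeR adjusted p = 0.0033) in control and by 1.97 (SE 0.48, adjusted p = 0.010) in KO mice. The 3 retinol oxidation genes of the set thus did not share a direction, with Rdh7 lower and Adh1 and Dhrs9 higher in colon.

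Aldh1a1 (ENSMUSG00000053279.7, chromosome 19 from 20492715 to 20643465, plus strand) encodes a retinal dehydrogenase, the enzyme class that makes retinoic acid. Its ileal values were 351, 337 and 438 CPM in control and 425, 319 and 336 CPM in KO replicates. Its colonic values were 1178, 1372 and 1138 CPM in control and 1488, 1079 and 928 CPM in KO replicates. The tissues were separated by more than a 2-fold step between the highest ileal and the lowest colonic library. The log2 fold change was 1.71 (SE 0.20, edgeR adjusted p = 9.2e-05) in control and 1.69 (SE 0.20, adjusted p = 1.0e-04) in KO mice. Its near copy Aldh1a7, with which Aldh1a1 shares 1.01% of its 75-base windows, went the other way, with 37.1 to 56.9 CPM in ileum and 23.9 to 29.9 CPM in colon (log2 fold change -0.78 in control, SE 0.16, edgeR adjusted p = 0.0042, and -0.89 in KO mice, SE 0.16, adjusted p = 0.0020).

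Aldh1a2 (ENSMUSG00000013584.5, chromosome 9 from 71215789 to 71296243, plus strand) encodes the retinal dehydrogenase known from mesothelium, stroma and gut dendritic cells. It was at 17.4, 9.39 and 0.72 CPM in ileal control and 0.72, 7.46 and 6.87 CPM in ileal KO replicates. Colonic replicates were at 10.5, 9.45 and 13.2 CPM in control and 4.29, 5.70 and 7.06 CPM in KO mice. The 2 very low values again came from the ileal libraries poor in muscle transcripts. No difference between the tissues passed the test, with a log2 fold change of 0.28 (SE 0.85, edgeR adjusted p = 0.84) in control and 0.17 (SE 0.86, adjusted p = 0.90) in KO mice. Without those 2 libraries the sign turned, to -0.30 and -0.33, and neither passed.

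Isx (ENSMUSG00000031621.9, chromosome 8 from 74873173 to 74893506, plus strand) encodes the intestine-specific homeobox factor that represses Bco1 and the uptake receptor gene Scarb1. It was at 110, 121 and 99.4 CPM in ileal control and 112, 114 and 122 CPM in ileal KO replicates. In colon it was at 156, 131 and 125 CPM in control and 166, 127 and 169 CPM in KO replicates. Colon was higher without overlap in either genotype, but by little, and the lowest colonic and highest ileal control libraries lay close together. The log2 fold change of 0.31 (SE 0.14, edgeR adjusted p = 0.12) in control mice did not pass, and that of 0.41 (SE 0.14, adjusted p = 0.051) in KO mice did. The control value passed at 0.41 with upper-quartile factors (adjusted p = 0.060) and at 0.54 with library size as the only scaling (adjusted p = 0.014). The latter moved the median log2 difference of all genes from 0.02 to 0.24 in control mice, with 4156 genes higher and 2102 lower in colon against 2689 and 3251 with TMM factors, while upper-quartile factors moved it to 0.12 with 3373 higher and 2741 lower. The KO call was lost when ileum KO 1, ileum KO 2, colon KO 1 or colon KO 3 was left out, at 0.33 to 0.40.

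**Figure D2:**
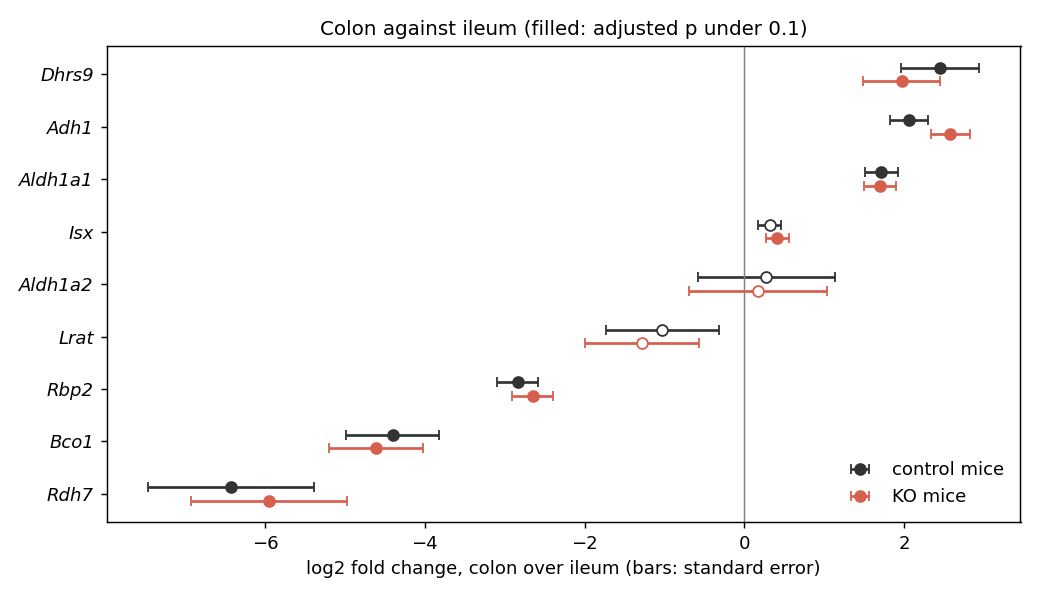
Log2 fold change of colon over ileum from edgeR for each gene in control (black) and KO mice (red), with standard errors as bars and filled points at an adjusted p under 0.1. Dhrs9, Adh1 and Aldh1a1 lie to the right at 1.69 to 2.58, Rbp2, Bco1 and Rdh7 to the left, and the value drawn for Rdh7 depends on the model because its colonic libraries held 1 or 2 counts.

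Taken per transcript length, the leading gene differed between the tissues. In ileal control libraries Rbp2 had the highest level, at 437 ± 140 TPM (SD, n = 3), above Aldh1a1 at 151 ± 45.0 and Isx at 120 ± 10.2 TPM, which overlapped each other. The other 6 genes followed at 1.52 to 21.4 TPM in the mean, and each overlapped its neighbour in that order. In colonic control libraries Aldh1a1 led at 580 ± 105 TPM, above Isx at 176 ± 3.23 TPM, and Isx lay above Adh1 at 103 ± 23.6 TPM. Adh1 overlapped Rbp2, at 70.8 ± 16.0 TPM, which lay above the rest. Aldh1a2, Dhrs9 and Lrat formed an overlapping group at 7.09 to 11.4 TPM, and Bco1 at 0.884 ± 0.049 TPM and Rdh7 at 0.067 ± 0.005 TPM were lowest. In KO libraries Rbp2 again led in ileum (458 ± 200 TPM) and Aldh1a1 in colon (630 ± 140 TPM), and in colon Adh1 (139 ± 11.95 TPM) no longer overlapped Rbp2 (90.4 ± 12.8 TPM).

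The ileal libraries differed among themselves along the same genes. Ileum control 3 and ileum KO 1, a library of each genotype, lay above the other 4 ileal libraries for Rbp2, Bco1, Lrat, Rdh7, Aldh1a1 and Adh1, and below them for Dhrs9 and Aldh1a2, so that 8 of the 9 genes lay outside the range of the other 4. Over all tested genes 50.4% did so, 23.2% above and 27.2% below. This division was made from marker levels after the data were seen, so no test is given. Rdh7 was at 10.2 and 10.5 CPM in the pair and at 1.67 to 2.84 CPM in the other 4, and Lrat at 63.8 and 69.6 against 8.33 to 25.1 CPM. Bco1 was at 36.7 and 39.9 against 11.7 to 14.1 CPM. Rbp2, at 251 and 281 against 163 to 192 CPM, Adh1, at 30.2 and 25.0 against 15.7 to 23.6 CPM, and Aldh1a1, at 438 and 425 against 319 to 351 CPM, lay closer to the others. Dhrs9 was at 1.74 and 1.43 against 3.32 to 5.32 CPM, and Aldh1a2 at 0.72 and 0.72 against 6.87 to 17.4 CPM. The direction was thus that of the tissue difference for Rbp2, Bco1, Rdh7 and Dhrs9, with the pair farther from colon, and the opposite for Adh1 and Aldh1a1.

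The sum of 6 epithelial markers was level across these libraries, at 17990 to 22460 CPM in all 6 ileal libraries. Of these markers, Epcam (2679 and 2982 CPM in the pair) and Krt20 (3075 and 3290 CPM) lay below the other 4 libraries, and the rest overlapped. Goblet markers summed to 16350 and 16820 CPM in the pair and 13760 to 14380 CPM in the others. Enteroendocrine markers summed to 276 and 238 against 131 to 141 CPM. Fibroblast markers summed to 43.3 and 40.8 CPM in the pair and 313 to 599 CPM in the others, mesothelial markers to 5.10 and 7.45 against 49.1 to 149 CPM, and enteric glial and neuronal markers to 0.98 and 0.83 against 8.56 to 13.8 CPM. Each of these lists had 6 markers and none was at 0 in all libraries of a group. Their part in the levels of the retinoid genes was not tested. Pathway genes moved with the pair as well. The lipase gene Pnliprp2 was at 136 and 114 CPM against 13.6 to 26.8 CPM, and Stra6l, which encodes a retinol binding protein receptor, at 21.1 and 18.9 against 7.06 to 10.1 CPM, whereas Cd36 (0.68 and 0.95 against 4.72 to 9.72 CPM) and Lpl (1.74 and 1.25 against 6.83 to 10.9 CPM) were lower. Cd36, a fatty acid and carotenoid uptake receptor gene, was named after its values were seen.

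**Figure D3:**
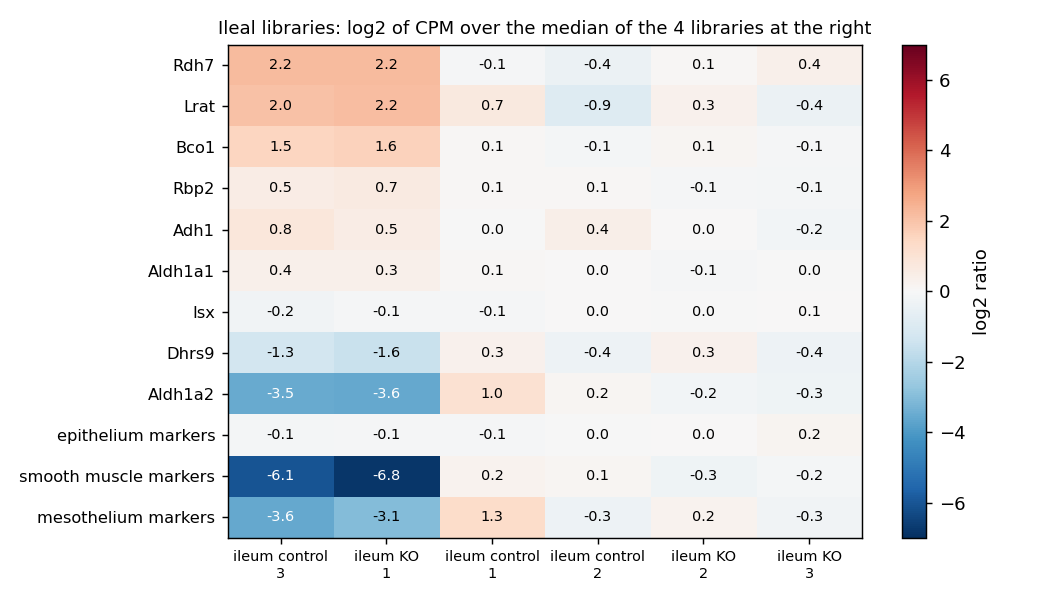
Log2 ratio of CPM in each ileal library to the median of the 4 libraries at the right, for the 9 genes and for the summed CPM of 3 marker lists. The left pair, ileum control 3 and ileum KO 1, is high for Rdh7, Lrat and Bco1 (1.52 to 2.24). It is level for the sum of the epithelial markers, and low for Aldh1a2, mesothelial and smooth muscle markers.

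Ileum KO 2 differed from the other ileal libraries in some colonic absorptive markers. Car1 was at 2632 CPM there and at 3.40 to 144 CPM in the other 5, and Aqp8 at 67.3 against 0 to 0.36 CPM. Slc26a3 was at 266 CPM there and at 139 to 207 CPM in the other 5. Slc37a2, at 37.3 CPM, also exceeded every colonic library (0.20 to 2.26 CPM), and Car4 and Ceacam20 lay within the range of the other ileal libraries. Of the genes higher in colon, Aldh1a1 was at 319 CPM in ileum KO 2, the lowest of the 6 ileal libraries, while Dhrs9, at 5.24 CPM, was below the highest of the others and above the rest. Adh1, at 17.9 CPM, and Isx, at 114 CPM, lay within the range of the others. The part of these transcripts in the levels of the retinoid genes was not tested.

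Of the 60 other genes of the route, 48 passed the filter on low counts. In control mice 32 of the 48 differed between the tissues, 15 higher and 17 lower in colon, where 35.9% of all tested genes differed, 16.2% higher and 19.6% lower. In KO mice 28 did, 11 higher and 17 lower, where 37.1% of all tested genes differed, 17.1% higher and 20% lower. The genes not tested were Pnlip, Rbp3, Crabp1, Crabp2, Rdh19, Sdr16c5, Adh4, Adh7, Aldh8a1, Cyp26a1, Cyp26c1 and Rxrg. The median absolute log2 difference over the 48 was 0.78 in control and 0.80 in KO mice, against 0.50 and 0.51 over all tested genes.

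Of the uptake and carotenoid cleavage genes, 8 were tested and 7 passed in control mice (35.9% of all tested genes), 3 higher and 4 lower in colon, and 6 passed in KO mice (37.1% of all tested genes), 2 higher and 4 lower. Scarb1, the carotenoid uptake receptor that Isx represses, was at 1.25 to 2.38 CPM in ileum and 6.97 to 11.5 CPM in colon (log2 fold change 2.18 in control and 2.58 in KO mice, edgeR adjusted p = 2.7e-04 and 8.3e-05). Bco1 and Scarb1, both targets of that repressor, therefore differed between the tissues in opposite directions. Npc1l1, a sterol transporter, was at 618 to 973 CPM in ileum and 1.43 to 4.32 CPM in colon, and Pnliprp2 at 13.6 to 136 against 0.41 to 1.49 CPM. Plb1, which encodes an intestinal phospholipase and retinyl ester hydrolase, was at 1.53 to 7.78 CPM in ileum and held 2 to 16 counts per library in colon. Bco2, the second carotenoid oxygenase, named after its values were seen, was at 17.1 to 32.0 CPM in ileum and 3.84 to 5.75 CPM in colon (log2 fold change -2.11 in control and -2.36 in KO mice). Stra6l was higher in colon (1.14 and 1.11 on the log2 scale), and Stra6, a related receptor, passed in control mice alone at 1.65 (SE 0.63, edgeR adjusted p = 0.073), with 4 to 32 counts per library over both tissues.

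Of the ester formation and export genes, all 7 were tested and 5 passed in control mice (35.9% of all tested genes), 1 higher and 4 lower in colon, with the same split in KO mice (37.1% of all tested genes). The genes of chylomicron assembly showed large differences beside that of Rbp2. Mttp, which loads lipid onto apolipoprotein B, was at 643 to 1119 CPM in ileum and 1.58 to 8.92 CPM in colon (log2 fold change -8.35 in control and -7.51 in KO mice). Apob was at 3557 to 4384 against 131 to 251 CPM (-4.45 and -4.10). Dgat1, an acyltransferase that can also esterify retinol, was at 332 to 496 against 32.3 to 45.0 CPM (-3.32 and -3.45). Lpl, the lipoprotein lipase gene, was higher in colon at 3.26 and 3.64 on the log2 scale. Among the 4 binding proteins tested, Rbp7 was lower in colon (-3.13 and -3.26) and Rbp4 (1.99 and 2.65) was higher, as was 1 further gene.

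Of the retinol and retinal oxidoreductases, 14 were tested and 8 passed in control mice (35.9% of all tested genes), 5 higher and 3 lower in colon, and 7 passed in KO mice (37.1% of all tested genes), 4 higher and 3 lower. Rdh9, a relative of Rdh7, was at 134 to 191 CPM in ileum and 2.69 to 12.1 CPM in colon (-4.17 and -4.53 on the log2 scale), in the direction of Rdh7. Its relatives Rdh1, at 0.50 to 2.92 CPM in ileum and 1.58 to 2.46 CPM in colon, and Rdh16, at 9.14 to 36.3 and 10.8 to 22.2 CPM, did not pass. Retsat, the retinol saturase gene, was at 12.98 to 35.9 CPM in ileum and 81.6 to 110 CPM in colon (2.05 and 1.92), and Adh5 at 42.9 to 62.9 against 159 to 232 CPM (1.85 and 1.92), the direction of Adh1. Rdh10, a retinol dehydrogenase of retinoic acid synthesis, was also higher in colon (0.76 and 0.80), and Dhrs3, which reduces retinal, did not pass (0.44 and 0.33).

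Among genes that remove or respond to retinoic acid, Cyp26a1, whose enzyme degrades retinoic acid, had 0 to 3 counts per library, and Cyp26b1, of the same family, 5 to 32 counts, with no difference between the tissues that passed (-0.79 and -1.50 on the log2 scale, edgeR adjusted p = 0.44 and 0.14). Rarb, a receptor gene that retinoic acid induces, had 1 to 18 counts per library and did not pass. Rarg, another retinoic acid receptor gene, was at 4.22 to 5.39 CPM in ileum and 12.3 to 19.9 CPM in colon (1.40 and 1.81). Of the 6 regulators, Hnf4g, a nuclear receptor gene of the small intestinal program, was at 171 to 298 CPM in ileum and 20.3 to 43.5 CPM in colon (-2.82 and -3.40), and Gata4 was at 0.19 to 2.82 CPM in all 12 libraries and did not pass. Its relative Gata6, named after its values were seen, was at 52.2 to 63.3 CPM in ileum and 26.1 to 30.3 CPM in colon.

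**Figure D4:**
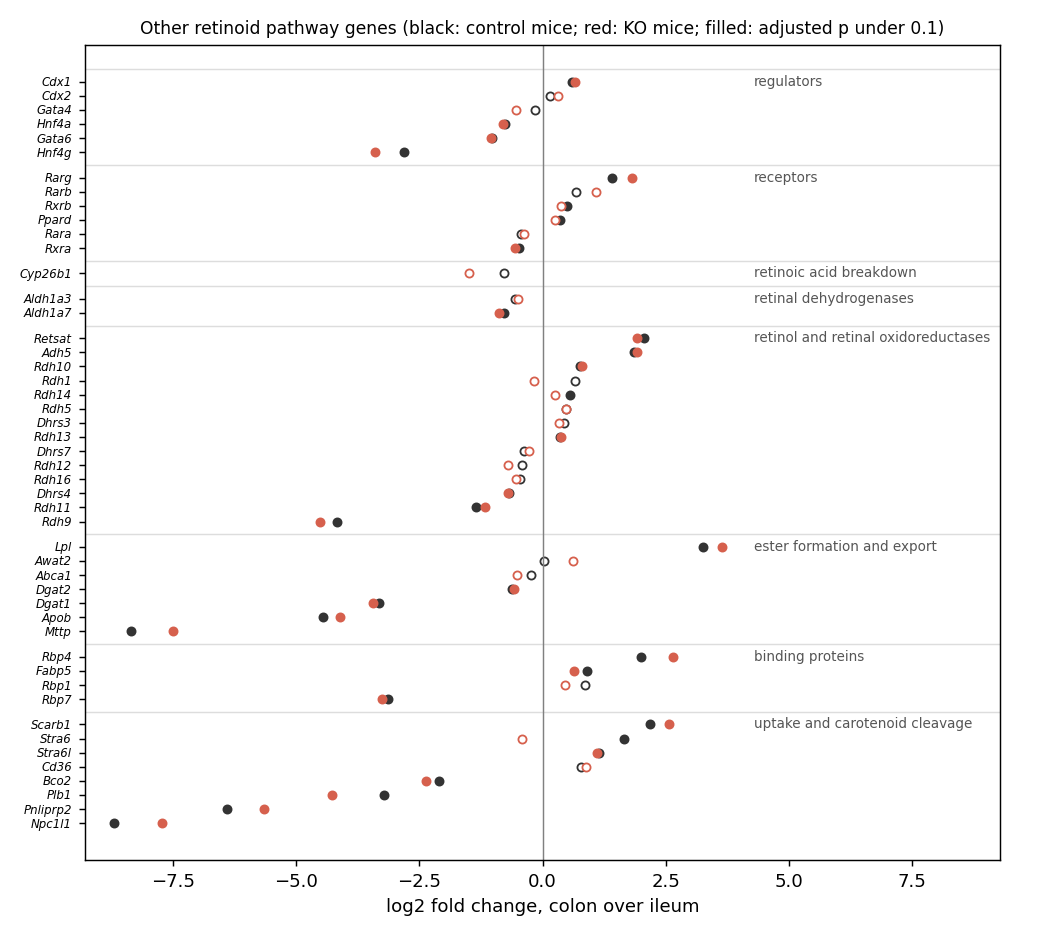
Log2 fold change of colon over ileum from edgeR for the 48 tested genes of the retinoid route, grouped by step, in control (black) and KO mice (red), with filled points at an adjusted p under 0.1. The largest differences are those of Npc1l1 and Mttp, at -8.71 and -8.35 in control mice, and 17 genes in each genotype are filled to the left of 0.

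Between the genotypes no member of the set passed the test. edgeR called 0 of the 9 genes in ileum, in colon and in the fit that joined the tissues with a term for tissue, and for the change of the genotype effect from ileum to colon, and in each it called 0% of all tested genes. None of the 9 had an unadjusted p under 0.05 in any of these 4 comparisons, while 1.52% of all tested genes did in ileum, 2.33% in colon, 3.87% over both tissues and 1.02% for the difference. DESeq2 also called 0 of the 9, and of all genes it called 2 in ileum (0.00715%), 0 in colon (0%), 4 over both tissues (0.0143%) and 1 for the difference (0.00357%). The deleted gene Slc39a8 was itself among the tested genes that edgeR did not call. Without the 2 ileal libraries poor in muscle transcripts edgeR called 3 genes in ileum, 0 in colon and 5 over both tissues, and 0 of the 9 members. The fit over both tissues and the tests between the tissues take the libraries as independent.

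For the abundant genes the intervals were narrow. Aldh1a1 had a log2 fold change of KO over control of -0.06 in ileum (95% interval -0.50 to 0.38) and -0.08 in colon (-0.51 to 0.36). Isx had 0.07 in ileum (-0.24 to 0.38) and 0.16 in colon (-0.15 to 0.48), and Rbp2 -0.04 (-0.57 to 0.48) and 0.14 (-0.39 to 0.67). Changes of 2-fold in either direction thus lay outside the intervals of these 3 genes, and outside those of Adh1, at -0.28 in ileum (-0.80 to 0.23) and 0.23 in colon (-0.27 to 0.73). A rise and a fall of 2-fold both lay within the intervals of Lrat in ileum (0.04, -1.49 to 1.57) and colon (-0.21, -1.76 to 1.34), of Bco1 in colon (-0.13, -1.43 to 1.17), and of Dhrs9 (-0.03, -1.09 to 1.03) and Rdh7 (0.15, -1.37 to 1.66) in ileum. The interval of Bco1 in ileum (0.08, -0.97 to 1.13) held a 2-fold rise but not a fall, and that of Dhrs9 in colon (-0.50, -1.51 to 0.50) a 2-fold fall but not a rise. The smallest unadjusted edgeR p for a genotype effect that changed from ileum to colon was that of Adh1, 0.14, at 0.51 on the log2 scale (SE 0.33).

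Aldh1a2, in colon, was the 1 member whose genotype groups did not overlap. In colon the KO libraries, at 4.29, 5.70 and 7.06 CPM, all lay under the control libraries, at 10.5, 9.45 and 13.2 CPM, and 12.8% of all tested genes had groups in colon that did not overlap, in either direction. The log2 fold change was -0.96 (SE 0.86, 95% interval -2.85 to 0.93, edgeR adjusted p = 1.0), and the 2-sided exact permutation test gave p = 0.1, the smallest that 3 libraries against 3 allow. In ileum, where 3.7% of all tested genes had groups that did not overlap, those of Aldh1a2 did (-0.85, SE 0.87, exact permutation p = 0.5), and over both tissues the exact permutation p was 0.335. The 6 mesothelial markers moved with it in colon. Msln, Upk3b, Lrrn4, Wt1, Upk1b and Muc16 were each lower in all colonic KO than in all colonic control libraries, with a sum of 20.4 to 40.7 against 53.5 to 107.5 CPM, and Msln was at 4.15 to 9.46 against 11.9 to 23.1 CPM. None of the 6 passed edgeR's test, and the part of mesothelium in the lower Aldh1a2 was not tested. Dendritic cell and macrophage markers, summed over 6 genes, were at 12.3, 14.2 and 23.95 CPM in colonic KO replicates 1 to 3. In colonic control libraries the sum was 16.7 to 17.6 CPM. Of these 6, Zbtb46 was lower in all colonic KO than in all colonic control libraries, and the rest overlapped. The part of these cells in the lower Aldh1a2 was not tested.

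**Figure D5:**
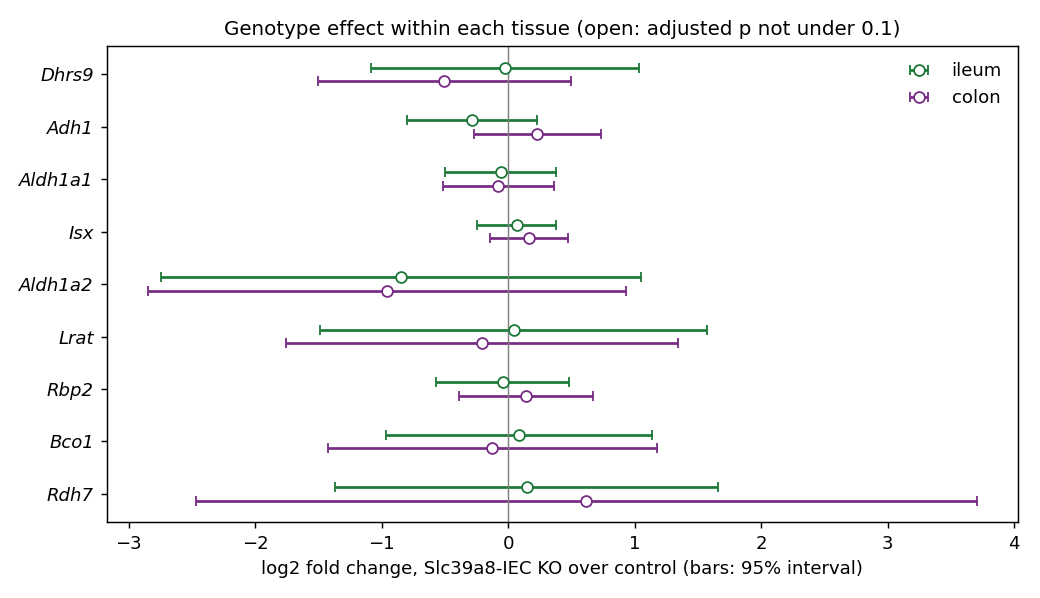
Log2 fold change of Slc39a8-IEC KO over control from edgeR in ileum (green) and colon (purple), with 95% intervals as bars and open points because no adjusted p was under 0.1. Every interval crosses 0, the intervals of Aldh1a1 and Isx are the shortest, and the colonic interval of Rdh7, which rests on 1 or 2 counts per library, is the longest.

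Of the 48 other genes of the route, edgeR called 0 between the genotypes in each of the 4 comparisons. In colon 5 of the 48 had an unadjusted p under 0.05 (2.33% of all tested genes), and they were Mttp (log2 fold change 1.07), Npc1l1 (0.84), Rbp4 (0.80), Rdh14 (-0.32) and Stra6 (-1.67). In ileum Awat2 (-1.48) did (1.52% of all tested genes), over both tissues Awat2 (-1.16) and Cdx1 (0.41) (3.87%), and for the difference between the tissues Npc1l1 (0.98) and Stra6 (-2.06) (1.02%). Their edgeR adjusted p was 0.998 over both tissues and 1.0 in the other comparisons. Mttp was at 2.83, 2.59 and 8.92 CPM in colonic KO replicates 1 to 3 and at 1.58 to 2.82 CPM in colonic control libraries. Its value thus rests largely on colon KO 3. Of the small intestinal absorptive markers, Fabp6 (26.8 CPM), Anpep (35.9 CPM), Apoa4 and Alpi were higher there than in every other colonic library. Slc10a2 was lowest there, and Sis lay within the range of the others. Their part in these values was not tested. Npc1l1 was at 1.43 to 4.32 CPM in colon, and Awat2 and Stra6 held few counts in both tissues. Awat2, Cdx1 and Rdh14 were named after their values were seen.

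The genes outside the route whose log2 CPM followed each member most closely over the 12 libraries were found by Pearson's correlation, which is given as a description because the libraries fall into 2 tissues and the 2 ileal libraries with few muscle transcripts shape it. For the intake genes these were Tcn2 with Rbp2 (r = 0.993), Guca2b with Bco1 (r = 0.997) and Ghr with Lrat (r = 0.965). Guca2b, which encodes uroguanylin, was at 602 and 605 CPM in ileum control 3 and ileum KO 1, from 173 to 238 CPM in the 4 remaining ileal libraries and at 12.7 to 19.1 CPM in colon. Tcn2, the gene of the vitamin B12 carrier transcobalamin 2, was at 263 to 393 CPM in ileum and 56.4 to 66.2 CPM in colon. Among the oxidation genes, Ces1c (r = 0.994) and Cubn (r = 0.993) were closest to Rdh7, Tlr4 to Dhrs9 (r = 0.985), Dym to Adh1 (r = 0.984) and Car8 to Aldh1a1 (r = 0.987). Cubn, which encodes the vitamin B12 receptor cubilin, was at 1151 and 1079 CPM in the pair, 346 to 506 CPM in the other ileal libraries and 27.2 to 46.3 CPM in colon.

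Rspo1 (r = 0.996) and Gpm6a (r = 0.988) were closest to Aldh1a2. Rspo1, which encodes a Wnt pathway agonist, was at 0 in ileum control 3 and ileum KO 1, from 2.46 to 8.92 CPM in the 4 remaining ileal libraries, at 4.03 to 6.83 CPM in colonic control and at 1.51 to 2.70 CPM in colonic KO libraries. Rspo1 was picked for its likeness to Aldh1a2 over these same libraries, so its values add no support to those of Aldh1a2. Alas1, the gene of the entry enzyme of haem synthesis, was closest to Isx (r = 0.937), at 56.0 to 100 CPM in ileum and 114 to 270 CPM in colon.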

How the data were processed

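Total RNA from ileal and colonic mucosa was sequenced in 12 libraries. According to the methods of the study, libraries were prepared with oligo-dT and read as 150-base paired ends. The deposited table holds expected counts per gene, not normalized, which the authors made with STAR on mm10 per the labels, and the study's reporting summary lists UMI-tools and FeatureCounts. FeatureCounts gives whole counts, and no source used here states which tool made the estimated values. Of 53807 lines, 92 are spike-ins with 0 counts, and 93.7% of values were whole within 0.005. Reads that match several genes may be split between relatives by such estimates.

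Expected counts were rounded to whole numbers. Genes passing edgeR's filterByExpr over the 4 groups (16558) were fitted together with TMM factors (edgeR 4.0.16, R 4.3.3), 1 coefficient per tissue and genotype, and tested by the quasi-likelihood F-test with Benjamini-Hochberg adjustment over all tested genes and a threshold of 0.1. Genotype was also fitted on all 12 libraries with a term for tissue. Exact permutation tests used log2(CPM + 0.5) with genotypes exchanged within tissue. TPM used the summed exon lengths of GENCODE M21. Groups came from the labels, which say of the replicates only that they are separate samples. The methods of the study give 3 mice per group as biological replicates, so p-values measure the spread between mice. No library was a duplicate by a chi-square comparison of counts. The scripts were tested on simulated counts. Depth of 16749138 to 27903083 counts leaves genes with few counts, such as Rdh7 in colon, limited by counting error.

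Alternatives were other scaling factors, DESeq2 1.42.0, no filter on low counts, the replicate number as a block, each library left out, and both ileal libraries with few muscle transcripts left out. Same-numbered libraries did not deviate together in most pairs taken over all groups, and the numbers were not used as pairs. The members and lists were chosen with earlier results of these data known. Besides the members and Slc39a8, the text names the route's genes past the threshold, at most the 8 largest in each direction, with Gata4, Rdh1, Rdh9, Rdh16, Aldh1a7, Scarb1, Cyp26a1, Cyp26b1, Rarb and Dhrs3, and the 2 genes most correlated with each member, of which some are given. Promoter sequences are those of RefSeq (GRCm38.p6), which matched 9 of the 9 genes.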

Additional observations from a re-analysis of the deposited data

How the results depend on the processing

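Under the 19 alternatives the number of the 9 genes past the threshold was 6 or 7 between the tissues in each genotype and 0 between the genotypes. Among the members Isx between the tissues was the only call that changed, in the fits named above. Of the single-gene values, 83 reversed sign, and none of these passed the test under the alternative. Aldh1a2 between the tissues turned to -0.30 in control and -0.33 in KO mice without the 2 ileal libraries with few muscle transcripts. Genotype values near 0 reversed as follows. With library size as the only scaling they were 0.011 for Rbp2 and 0.0456 for Dhrs9 in ileum, 0.0169 for Aldh1a1 in colon, 0.0026 for Aldh1a1 and 0.052 for Adh1 over both tissues, and 0.0286 for Aldh1a1 in the difference between the tissues. With upper-quartile factors they were -0.013 for Bco1 over both tissues and 0.0079 for the difference of Aldh1a1, which was 0.0058 with no filter on low counts. Without the 2 ileal libraries they were -0.11 for Lrat in ileum, -0.0297 for Bco1 and 0.0426 for Adh1 over both tissues, and 0.0221 for the difference of Aldh1a1. DESeq2 gave -0.005 for Bco1 over both tissues. The cause was not tested.

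Leaving out 1 library moved Aldh1a2 between the tissues from -0.30 to 1.14 in control and from -0.34 to 0.57 in KO mice. The genotype effect in ileum ranged from -0.35 to 0.11 for Rbp2, -0.67 to 0.80 for Bco1, -1.06 to 1.02 for Lrat, -0.52 to 0.42 for Dhrs9, -0.87 to 1.46 for Rdh7, -0.20 to 0.0696 for Aldh1a1, -1.41 to 0.0146 for Aldh1a2 and -0.0004 to 0.14 for Isx. In colon it ranged from -0.0285 to 0.27 for Rbp2, -0.44 to 0.0515 for Lrat and -0.31 to 0.0784 for Aldh1a1. Over both tissues it ranged from -0.0773 to 0.13 for Rbp2, -0.43 to 0.41 for Bco1, -0.59 to 0.33 for Lrat, -0.58 to 1.31 for Rdh7 and -0.11 to 0.11 for Adh1. The difference between the tissues ranged from -0.91 to 0.54 for Bco1, -1.21 to 0.86 for Lrat, -0.92 to 0.0132 for Dhrs9, -0.83 to 1.48 for Rdh7, -0.25 to 0.15 for Aldh1a1 and -0.97 to 0.46 for Aldh1a2.

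Same-numbered libraries correlated over 0.1 in 5 of 18 pairs, and the replicate number was not taken as a pairing. Those 18 include pairs of a control and a KO library, which cannot share a mouse. Same-numbered ileal and colonic libraries of 1 genotype correlated at -0.05, 0.16 and -0.08 in control and 0.19, 0.05 and 0.25 in KO mice. Differently numbered ones ranged from -0.18 to 0.16 in control and -0.21 to 0.05 in KO mice. Whether tissues share mice is thus not settled. With the replicate block edgeR called 5333 genes between the tissues in control and 5558 in KO mice, against 5940 and 6149 without it, and 0 between the genotypes. The block turned Bco1 over both tissues to -0.0248 and changed no call of the 9 genes. In KO mice 4637 genes were higher and 1908 lower in colon by library size alone, 3678 and 2634 with upper-quartile factors, and 2837 and 3312 with TMM factors.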
